A study of Danio rerio with 12 samples.

Results

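Genes that build the eye and the genes by which its photoreceptors detect light were followed in whole 2-day-old zebrafish embryos of a wild-type strain. The 41 genes listed for this purpose run from factors of the eye field to opsins and the visual cycle, and 39 were found by identifier or symbol among the 32105 genes of the count table. Several zebrafish copies share a symbol there, so the 39 genes correspond to 47 identifiers, 18 of transcription factors and 29 of opsins and phototransduction. The listed otx5 and pde6a were matched by no symbol or synonym, and no values are given under those names. Whether either is among the genes counted under other symbols was not determined. Copies that share a symbol are given with their identifiers, since the symbol does not say which copy is which. RNA sequencing compared 3 groups of 4 libraries: a control group with no perturbation, a group given 2 ng of synthetic miR-101a and a group given 2 ng of synthetic miR-29a. The labels name no group given a control RNA and do not say how the microRNAs were given, so a response to the procedure itself cannot be told apart from a response to a microRNA. The labels do not tie replicates to separate clutches, and each p-value therefore reflects only the scatter of these libraries, some of which may be technical.

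In vertebrate development, Pax6, Rx, Six3, Six6 and Lhx2 mark a single eye field in the anterior neural plate, which then divides and folds into the optic cups. Later factors divide the retina into cell types. Atoh7 is needed for retinal ganglion cells, Vsx1 acts in bipolar interneurons, and Crx, Nrl and Nr2e3 direct photoreceptor genes. In a photoreceptor, light activates an opsin, the opsin activates the G protein transducin, and transducin activates a phosphodiesterase that lowers cyclic GMP. Opsin kinases and arrestins end the response, recoverin and guanylate cyclase activating proteins adjust it to calcium, and the visual cycle regenerates the chromophore. The pineal organ of zebrafish also holds photoreceptor cells, so several of these genes are not limited to the eye.

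The libraries held 19804199 to 30383374 counts in genes, and levels are given as counts per 1000000 (CPM) scaled by TMM, a correction for differences in library composition. Markers of skeletal muscle, heart, epidermis, neurons, red cells and liver were present in all 12 libraries, as the whole-embryo label says. Their levels were not even, when scaled by total counts only. The neuron marker elavl3 ranged from 61.6 to 617 CPM, the liver marker tfa from 216.5 to 1095 CPM and the heart marker myl7 from 4.57 to 34.6 CPM. Replicate 3 of miR-29a stood apart. Its TMM factor was 0.729 against 0.963 to 1.11 in the other 11 libraries, and ribosomal protein genes took 14.2% of its counts against 7.34% to 8.75%. Its counts were shifted toward short genes, with a median log2 deviation of 0.58 in the shortest 10% of well-counted genes and -1.27 in the longest 10%. Results are therefore also given without it where it changes them, and its part in them is stated only as those values. Genes were called at an adjusted p under 0.05 (edgeR's quasi-likelihood test, Benjamini-Hochberg adjustment over the 20872 genes tested). Library ranges are also compared below, and such separation of groups was common over all tested genes. All miR-29a libraries were below all controls in 15.1% of them and above in 18.4%. With miR-101a the shares were 20.5% and 23.3%. All miR-29a libraries were below all miR-101a libraries in 12.0% and above in 11.6%. Of the 47 identifiers, 38 had enough counts to be tested, and the other 9 are all in the opsin and phototransduction class.

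With miR-29a, most tested genes of the eye field, the photoreceptor transcription factors and the opsins were lower than in control. Of the 5 tested opsins 4 were called lower, and of the 3 tested transducin and phosphodiesterase genes 0 were. The call was lower than control for 29 of the 38 tested genes and higher for 2, where 11.9% of all tested genes were called lower and 17.1% higher. Earlier results of these data were known when the genes were chosen. An excess over such shares, here and below, is therefore not a test of the set. The median log2 change of the 38 was -1.66, beside 0.03 over all tested genes. Among the 18 transcription factors 15 fell and 1 rose (median -1.73), and among the 20 tested opsin and phototransduction genes 14 fell and 1 rose (median -1.33). The summed level of the 18 transcription factors was 131.4 to 215.1 CPM in the miR-29a libraries against 416.7 to 493.7 CPM in control. That of the 29 opsin and phototransduction genes was 37.2 to 54.9 CPM against 81.1 to 85.3 CPM. In RNA from whole embryos, fewer cells of a type and less RNA per cell cannot be told apart. Without replicate 3, 34 genes of 40 tested were called lower and 2 higher, where the shares over all genes were 26.8% and 25.8%.

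With miR-101a, calls went both ways, those higher at close to the share over all genes. The call was lower for 9 of the 38 genes and higher for 5, where 6.97% of all tested genes were called lower and 11.7% higher. The median log2 change was -0.33, beside 0.02 over all genes. Among the 18 transcription factors 3 fell and 1 rose (median -0.50). Among the 20 tested opsin and phototransduction genes 6 fell and 4 rose (median -0.00). The summed level of the transcription factors was 308.7 to 335.5 CPM, below every control library. That of the opsin and phototransduction genes was 73.2 to 79.2 CPM, also below every control library. Visual cycle genes made up most of this second sum, at 39.8 to 44.0 CPM against 50.2 to 54.5 CPM in control. The summed opsins overlapped control, at 7.67 to 10.6 against 9.62 to 11.3 CPM. So did genes of shut-off and calcium feedback, at 13.0 to 16.5 against 14.6 to 16.4 CPM. The summed transducin and phosphodiesterase genes were above every control, at 8.13 to 9.36 against 5.19 to 6.27 CPM. The number called depended on the libraries in the fit. Without miR-29a replicate 3, 19 genes of 40 were called lower and 8 higher, where the shares over all genes rose to 24.2% and 23.7%. Leaving out a single control or miR-101a library instead gave 3 to 5 genes called lower, and leaving out control replicate 4 gave 3 called higher. No shares over all genes were counted for these fits.

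The 2 treated groups were also compared directly, since both share the control libraries, and direct differences are given as miR-29a minus miR-101a. With miR-29a, 22 of the 38 genes were lower than with miR-101a, where 9.23% of all genes were called lower, and the median log2 difference was -1.19. By edgeR 0 genes were called higher, where 8.64% of all genes were, and DESeq2 called 1. In that direction 1 had an unadjusted p under 0.05, a threshold at which the share of all genes was not counted. The 22 comprise 11 of the 18 transcription factors and 11 of the 20 tested opsin and phototransduction genes. Without replicate 3, 30 of 40 were lower and 1 higher, where 22.1% and 21.3% of all genes were called.

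**Figure D1:**
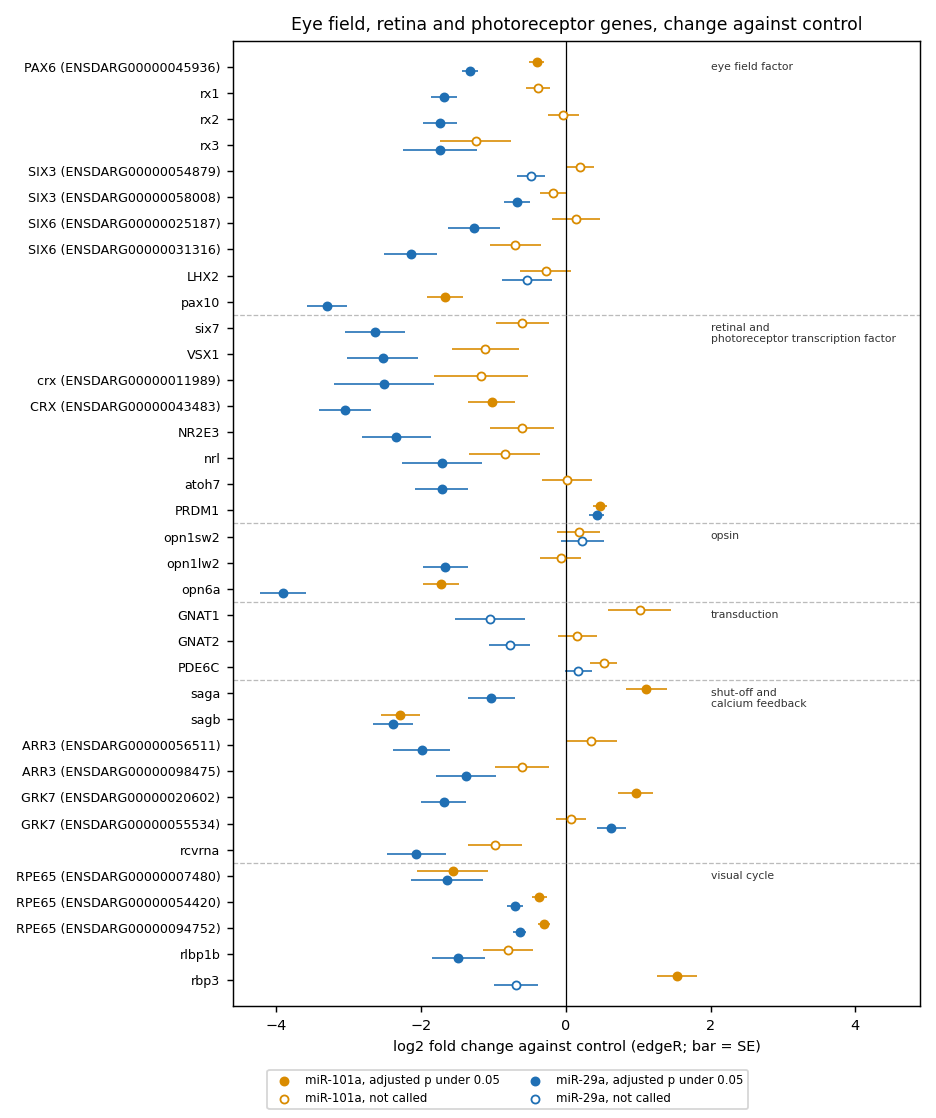
Log2 fold change against control with its SE (x axis) for 36 tested genes (y axis, grouped by role), with miR-101a in orange and miR-29a in blue; filled points passed an adjusted p of 0.05. With miR-29a 27 points are filled on the left of 0 and 2 on the right, and with miR-101a 8 and 4.

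Levels differed widely between the genes in control embryos, compared here as RPKM, the reads per length of gene and depth of library, recomputed from the counts. VSX1 was highest at 47.1 ± 6.41 RPKM (SD, n = 4), followed by atoh7 at 24.1 ± 0.898 RPKM. The SIX3 copies were at 17.7 ± 0.879 and 14 ± 0.35 RPKM, and CRX (ENSDARG00000043483) at 16.9 ± 3.36 RPKM. Most genes of the light response were far lower. RPE65 (ENSDARG00000094752) reached 14.5 ± 1.23 RPKM, opn1lw2 1.53 ± 0.123 and GNAT1 1.11 ± 0.0729 RPKM. Thus the transcription factors carried most of the counts behind these results, and the fold changes of the photoreceptor genes rest on smaller counts.

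Among the 10 identifiers of eye field factors, 8 fell with miR-29a and 2 with miR-101a, where 11.9% and 6.97% of all genes did. Without miR-29a replicate 3, 10 fell with miR-29a, and with miR-101a 7 fell and 1 rose. In that fit 26.8% of all genes fell with miR-29a, and 24.2% fell and 23.7% rose with miR-101a. PAX6 (ENSDARG00000045936) was at 50.3, 52.9, 60.8 and 51.7 CPM in the control libraries, 38.9, 42.1, 39.8 and 42.1 with miR-101a and 17.2, 24.2, 21.3 and 23.4 with miR-29a, in replicate order. PAX6 is a paired-box factor that acts in eye development in many animals. The 3 groups did not overlap, with control highest and miR-29a lowest. Its log2 change was -1.32 ± 0.11 (SE; adjusted p 6.45e-06) with miR-29a and -0.41 ± 0.11 (adjusted p 0.0197) with miR-101a. The miR-101a call was lost without control replicate 3 or miR-101a replicate 1 or 3 (adjusted p up to 0.0666). The direct difference between the treated groups was -0.92 ± 0.11 (adjusted p 0.000234). Another identifier with the PAX6 symbol was counted only among the other eye and retina transcription factors below. The values and calls above are therefore those of the named identifier and not of PAX6 as a whole.

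pax10 was at 9.2, 10.6, 12.7 and 11.5 CPM in the control libraries, 2.8, 4.06, 3.4 and 3.57 with miR-101a and 0.464, 1.48, 1.34 and 1.17 with miR-29a. It encodes a Pax6-related homeodomain protein without the paired domain. Again no library of one group reached another group. On the log2 scale it changed by -3.30 ± 0.27 (adjusted p 7.7e-06) with miR-29a and -1.67 ± 0.25 (adjusted p 0.000769) with miR-101a, and it had the largest fall of the eye field factors in both comparisons. No fit that left out 1 library ended either call.

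The rx genes encode retinal homeobox factors, and in zebrafish rx3 is required for the optic vesicles to form while rx1 and rx2 act in the later retina. rx1 was at 19.3, 19.9, 18.3 and 19.2 CPM in the control libraries, 14.9, 15.6, 14.6 and 13.6 with miR-101a and 3.75, 7.27, 7.29 and 5.52 with miR-29a. rx2 was at 4.18, 4.67, 4.98 and 4.85 CPM in the control libraries, 4.09, 4.51, 5.08 and 4.56 with miR-101a and 0.674, 1.75, 1.76 and 1.41 with miR-29a. In both, every miR-29a library was below every other library. For rx2 the miR-101a range overlapped the control range, and for rx1 they lay between the other groups. The log2 change with miR-29a was -1.69 ± 0.18 (adjusted p 3.49e-05) for rx1 and -1.74 ± 0.23 (adjusted p 0.000201) for rx2. With miR-101a it was -0.38 ± 0.17 (adjusted p 0.148) for rx1 and -0.04 ± 0.22 (adjusted p 0.94) for rx2. The rx1 difference from control passed the threshold without miR-29a replicate 3 (adjusted p 0.00773).

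rx3 was at 3.31, 3.56, 4.49 and 3.54 CPM in the control libraries, 1.85, 1.69, 1.61 and 1.14 with miR-101a and 0.337, 0.467, 3.05 and 0.803 with miR-29a. All treated libraries were below all controls, and miR-29a replicate 3 alone was close to them. The log2 change with miR-29a was -1.74 ± 0.51 (adjusted p 0.0241), and -2.75 (adjusted p 5.05e-08) without replicate 3. The call was lost without control replicate 3 or miR-29a replicate 1, 2 or 4 (adjusted p up to 0.0631). With miR-101a the log2 difference was -1.24 ± 0.49 (adjusted p 0.105), and -1.26 (adjusted p 2.82e-05) without miR-29a replicate 3.

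SIX3 and SIX6 are homeobox factors of the eye field and forebrain. SIX6 (ENSDARG00000031316) was at 23.2, 25.6, 25.3 and 24.1 CPM in the control libraries, 14.9, 16.4, 15.8 and 13.5 with miR-101a and 2.06, 5.79, 10.8 and 3.71 with miR-29a. The groups were separate and in the same order as for PAX6. Its fitted log2 change was -2.15 ± 0.36 (adjusted p 0.00102) with miR-29a, and the difference with miR-101a was -0.70 ± 0.35 (adjusted p 0.203), or -0.72 (adjusted p 0.00372) without miR-29a replicate 3. The less abundant SIX6 (ENSDARG00000025187) changed by -1.27 ± 0.36 (adjusted p 0.0189) with miR-29a, a call lost without miR-29a replicate 4 (adjusted p 0.0541). With miR-101a it differed by 0.14 ± 0.33 (adjusted p 0.842).

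SIX3 (ENSDARG00000058008) fell by 0.68 on the log2 scale with miR-29a (adjusted p 0.0147). For SIX3 (ENSDARG00000054879) the value with miR-29a was -0.48 ± 0.19 (adjusted p 0.0892). In both copies miR-29a replicate 3 lay well above the other 3 libraries of its group. SIX3 (ENSDARG00000058008) was at 24.9 CPM there against at most 14.7 CPM, and changed by -0.94 (adjusted p 1.89e-08) without that library. SIX3 (ENSDARG00000054879) was at 35 CPM against at most 20.5 CPM, and changed by -0.77 (adjusted p 1.07e-07) without it. With miR-101a neither copy was called in the fit of all libraries. Without miR-29a replicate 3 the values with miR-101a were -0.20 (adjusted p 0.0256) for the first and 0.17 (adjusted p 0.0351) for the second. LHX2, a LIM homeobox factor, showed the opposite departure. It was at 38.7, 42.5, 9.26 and 48.5 CPM in the miR-29a libraries and at 47.0 to 53.1 CPM in control. Its log2 value with miR-29a was -0.53 ± 0.35 (adjusted p 0.289), and -0.22 (adjusted p 0.0217) without replicate 3. With miR-101a it was -0.28 ± 0.35 (adjusted p 0.673), and -0.30 (adjusted p 0.00242) without that library.

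Among the 8 retinal and photoreceptor transcription factors, 7 fell with miR-29a and PRDM1 rose, where 11.9% of all genes fell and 17.1% rose. The median log2 change of the 8 was -2.43. CRX (ENSDARG00000043483) was at 26.6, 26.4, 38.3 and 26.5 CPM in the control libraries, 13.1, 16.9, 15.4 and 12.4 with miR-101a and 1.18, 4.59, 5.64 and 2.88 with miR-29a. Its symbol is that of the cone-rod homeobox factor, which drives photoreceptor genes. Another identifier is listed as crx, and whether both are copies of crx was not determined. The groups did not overlap. In log2 units the change was -3.05 ± 0.36 (adjusted p 8.05e-05) with miR-29a and -1.03 ± 0.33 (adjusted p 0.0486) with miR-101a. The second call was lost in 10 of the 12 fits that left out 1 library (adjusted p up to 0.14), those without any one control library, any one miR-101a library or miR-29a replicate 2 or 4.

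crx (ENSDARG00000011989) was at 29, 30.8, 43.2 and 30.9 CPM in the control libraries, 11.5, 18.9, 16.8 and 12.1 with miR-101a and 0.337, 5.44, 15.4 and 2.61 with miR-29a. In this identifier the miR-29a libraries ranged widely, and replicate 3 overlapped the miR-101a group. The log2 change with miR-29a was -2.51 ± 0.69 (adjusted p 0.0166), and -3.57 (adjusted p 0.000354) without replicate 3. With miR-101a it was -1.18 ± 0.65 (adjusted p 0.257), and -1.21 (adjusted p 0.0249) without that library.

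six7 was at 8.45, 8.91, 10.3 and 8.35 CPM in the control libraries, 5.03, 6.44, 6.87 and 5.47 with miR-101a and 0.337, 2.06, 2.53 and 0.937 with miR-29a. In zebrafish this factor controls the cone opsins of middle wavelengths. Control, miR-101a and miR-29a were again separate and in descending order. The log2 change was -2.64 ± 0.41 (adjusted p 0.000542) with miR-29a. The difference with miR-101a was -0.60 ± 0.37 (adjusted p 0.318), and -0.62 (adjusted p 0.0393) without miR-29a replicate 3. Between the treated groups it was -2.04 ± 0.41 (adjusted p 0.00499).

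VSX1 was at 68.5, 69.6, 90.3 and 72.1 CPM in the control libraries, 30.3, 41.3, 37.9 and 29.5 with miR-101a and 3.16, 13.3, 28.6 and 7.26 with miR-29a. This bipolar cell factor was the most abundant of the genes per length in control. Every treated library was below every control. The log2 change with miR-29a was -2.53 ± 0.49 (adjusted p 0.0023), and -3.25 (adjusted p 8.14e-05) without replicate 3. With miR-101a it was -1.11 ± 0.46 (adjusted p 0.124), and -1.14 (adjusted p 0.00963) without that library.

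NR2E3 was at 17.4, 17.6, 23.9 and 17.5 CPM in the control libraries, 10.4, 15.2, 14.3 and 10.5 with miR-101a and 0.759, 4.47, 7.6 and 2.41 with miR-29a. The encoded nuclear receptor represses cone genes in mammalian rods. No library of one group lay within the range of another. On the log2 scale it changed by -2.34 ± 0.47 (adjusted p 0.00311) with miR-29a, and the difference with miR-101a was -0.60 ± 0.44 (adjusted p 0.418). Of the retinal and photoreceptor factors, six7, VSX1, both identifiers with the symbol crx or CRX, and NR2E3 had their highest level of the 12 libraries in control replicate 3.

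atoh7 was at 25.3, 24.7, 26.4 and 24.2 CPM in the control libraries, 24.8, 26.5, 26 and 24.2 with miR-101a and 2.23, 8.86, 13.4 and 6.26 with miR-29a. Here the miR-101a libraries lay within or beside the control range and all miR-29a libraries were below it. The log2 change with miR-29a was -1.72 ± 0.36 (adjusted p 0.00414) and the difference with miR-101a was 0.01 ± 0.35 (adjusted p 0.987). The direct difference between the treated groups was -1.73 ± 0.37 (adjusted p 0.00686). The rod factor nrl was low throughout, at 57 counts over the control libraries, 32 with miR-101a and 16 with miR-29a. Its log2 change with miR-29a was -1.71 ± 0.55 (adjusted p 0.0361). That call was lost in 6 fits that left out 1 library, namely control replicate 1, 2 or 3, miR-101a replicate 4 or miR-29a replicate 1 or 4, and it moved to -2.65 without miR-29a replicate 2.

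PRDM1 was at 21.1, 22.3, 25.1 and 20.4 CPM in the control libraries, 31.3, 28.4, 33.7 and 30.2 with miR-101a and 31.3, 31.1, 25.4 and 31.5 with miR-29a. In the mouse retina this zinc-finger repressor acts in the choice between photoreceptors and bipolar cells, and in zebrafish it also acts in slow muscle and neural crest. All treated libraries were above all controls. Its fitted log2 change was 0.47 ± 0.10 (adjusted p 0.00632) with miR-101a and 0.43 ± 0.10 (adjusted p 0.00733) with miR-29a. The direct difference was -0.05 ± 0.10 (adjusted p 0.793).

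**Figure D2:**
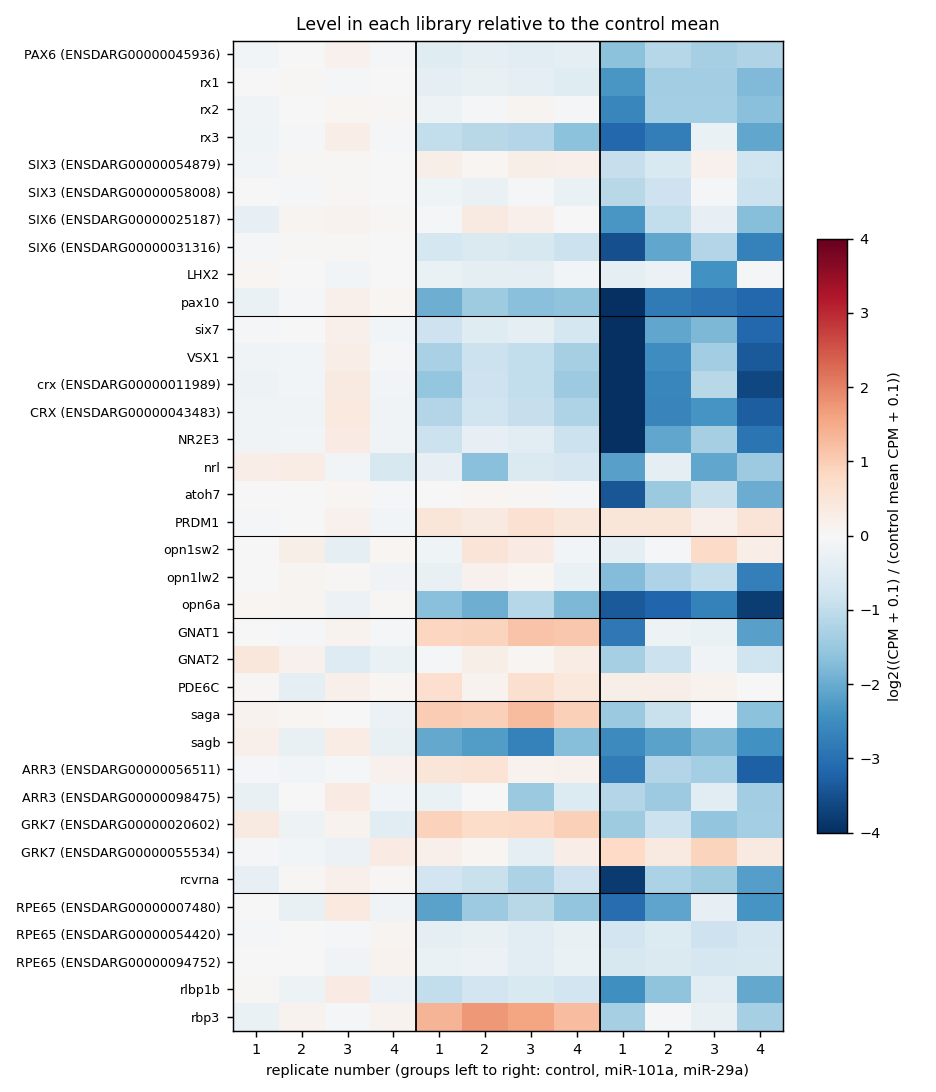
Level of 36 tested genes (rows, grouped by role) in each of the 12 libraries (columns, replicates 1 to 4 of control, miR-101a and miR-29a from left to right) as log2 of CPM plus 0.1 over the control mean plus 0.1, with colours limited to -4 and 4. The miR-29a columns are mostly blue and replicate 1 is the darkest for most transcription factors, while the miR-101a columns hold both blue and red rows.

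The opsins are the light receptors, and those described here were low in all groups. opn6a was at 2.34, 2.39, 1.86 and 2.31 CPM in the control libraries, 0.628, 0.496, 0.951 and 0.57 with miR-101a and 0.126, 0.155, 0.259 and 0.0669 with miR-29a. It encodes an opsin outside the rod and cone families. The 3 groups were separate in descending order. On the log2 scale it changed by -3.91 ± 0.32 (adjusted p 5.91e-06) with miR-29a, the largest of the 38 genes, and -1.73 ± 0.25 (adjusted p 0.000617) with miR-101a. The direct difference was -2.18 ± 0.35 (adjusted p 0.00139).

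opn1lw2 was at 2.72, 3.03, 2.84 and 2.5 CPM in the control libraries, 2.23, 3.12, 2.96 and 2.28 with miR-101a and 0.759, 1.13, 1.34 and 0.335 with miR-29a. This opsin of long-wavelength cones overlapped between control and miR-101a, and the miR-29a libraries were below both groups. Its fitted log2 change was -1.67 ± 0.31 (adjusted p 0.00191) with miR-29a, and the difference with miR-101a was -0.07 ± 0.28 (adjusted p 0.908). For opn1sw2, an opsin of short-wavelength cones, the values were 0.23 ± 0.30 (adjusted p 0.619) with miR-29a and 0.18 ± 0.30 (adjusted p 0.771) with miR-101a. OPN1SW, opn1lw1 and opn1mw1 were too low to test, and opn1mw1 summed to 6 counts in control and 0 with miR-101a.

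Of the 3 tested transducin and phosphodiesterase genes none was called against control by edgeR. At an unadjusted p under 0.05 there were 2 higher with miR-101a and 2 lower with miR-29a, and the share of all genes at that threshold was not counted. GNAT1, the rod transducin subunit, was at 2.13, 2.07, 2.39 and 2.12 CPM in control, 3.99, 4.11, 4.9 and 4.67 with miR-101a and 0.211, 1.87, 1.81 and 0.402 with miR-29a. All miR-101a libraries were above all controls and all miR-29a libraries below them. Against control the log2 value was 1.02 ± 0.44 (adjusted p 0.138) with miR-101a and -1.05 ± 0.48 (adjusted p 0.126) with miR-29a, and without miR-29a replicate 3 both passed, at 1.0 (adjusted p 0.0235) and -1.40 (adjusted p 0.0198). The direct difference was -2.07 ± 0.47 (adjusted p 0.0103). That call was lost in the fit of only the 8 libraries compared (adjusted p 0.0637). The cone subunit GNAT2 was at -0.78 ± 0.28 (adjusted p 0.0574) with miR-29a, and at -1.02 (adjusted p 0.00227) without replicate 3. It differed by -0.94 ± 0.28 (adjusted p 0.0376) between the treated groups, a call lost in 9 of the 12 fits that left out 1 library (adjusted p up to 0.0973), all but those without control replicate 1 or 3 or miR-29a replicate 3. PDE6C, the cone phosphodiesterase, differed by 0.52 ± 0.18 (adjusted p 0.0668) with miR-101a, or 0.51 (adjusted p 0.031) without miR-29a replicate 3, and by 0.17 ± 0.18 (adjusted p 0.534) with miR-29a. PDE6H, an inhibitory subunit of that enzyme, was not tested. It had 3 counts in control, 28 with miR-101a and 14 with miR-29a, ratios of 9.4 (95% interval 2.9 to 48.3) and 5.03 (1.4 to 27.3) per scaled depth, for counting error only.

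Among the 7 tested genes of response shut-off and calcium feedback, 6 fell and 1 rose with miR-29a, and 1 fell and 2 rose with miR-101a. Of all tested genes 11.9% fell and 17.1% rose with miR-29a, and 6.97% and 11.7% with miR-101a. sagb was at 3.39, 2.39, 3.58 and 2.35 CPM in the control libraries, 0.628, 0.545, 0.366 and 0.835 with miR-101a and 0.421, 0.583, 0.776 and 0.468 with miR-29a. It encodes an arrestin of the rod type. All treated libraries were below all controls, and the treated groups overlapped. In log2 units the change was -2.39 ± 0.27 (adjusted p 6.24e-05) with miR-29a and -2.29 ± 0.27 (adjusted p 0.000157) with miR-101a, and the direct difference was -0.10 ± 0.30 (adjusted p 0.863).

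saga was at 1.38, 1.32, 1.26 and 1.04 CPM in the control libraries, 2.61, 2.53, 3.18 and 2.51 with miR-101a and 0.379, 0.622, 1.19 and 0.335 with miR-29a. It is the paralog of sagb, and its miR-101a libraries were above all controls. The miR-29a libraries reached into the control range through replicate 3. The log2 change was 1.11 ± 0.29 (adjusted p 0.0181) with miR-101a and -1.03 ± 0.32 (adjusted p 0.032) with miR-29a. The first call was lost without control replicate 3 or 4 or miR-101a replicate 3 (adjusted p up to 0.0634). The second was lost without control replicate 1, 2 or 3 or miR-29a replicate 1, 2 or 4 (up to 0.0848). The direct difference was -2.15 ± 0.31 (adjusted p 0.000824), which kept its call in each such fit.

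GRK7 (ENSDARG00000020602) was at 0.669, 0.428, 0.562 and 0.346 CPM in the control libraries, 1.04, 0.892, 0.914 and 1.06 with miR-101a and 0.126, 0.233, 0.103 and 0.134 with miR-29a. This identifier has the symbol of the cone opsin kinase GRK7. The groups did not overlap, with miR-101a highest and miR-29a lowest. On the log2 scale it changed by 0.96 ± 0.24 (adjusted p 0.0141) with miR-101a, a call lost without control replicate 2 or 4 (adjusted p up to 0.0528). It was -1.69 ± 0.31 (adjusted p 0.00165) with miR-29a. The other identifier, GRK7 (ENSDARG00000055534), rose by 0.63 ± 0.20 (adjusted p 0.0346) with miR-29a, a call lost without control replicate 1, 2 or 3 or miR-29a replicate 1 (up to 0.1). With miR-101a it differed by 0.07 ± 0.20 (adjusted p 0.871).

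ARR3 (ENSDARG00000056511) was at 4.56, 4.35, 4.56 and 5.27 CPM in the control libraries, 6.57, 6.84, 5.23 and 5.28 with miR-101a and 0.59, 2.02, 1.76 and 0.402 with miR-29a. ARR3 is the cone arrestin. The miR-29a libraries were below all others, and the miR-101a range began just below the highest control. Its fitted log2 change was -1.99 ± 0.39 (adjusted p 0.0025) with miR-29a, and the difference with miR-101a was 0.35 ± 0.35 (adjusted p 0.581). The less abundant ARR3 (ENSDARG00000098475) changed by -1.38 ± 0.41 (adjusted p 0.0256) with miR-29a, a call lost without control replicate 2 or 3 or miR-29a replicate 1, 2 or 4 (adjusted p up to 0.0761).

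rcvrna was at 1.97, 2.57, 2.88 and 2.58 CPM in the control libraries, 1.41, 1.29, 0.987 and 1.37 with miR-101a and 0.0843, 0.972, 0.879 and 0.468 with miR-29a. Recoverin restrains opsin kinases in the dark. All treated libraries were below all controls, and the miR-29a libraries were below the miR-101a libraries. In log2 units the change was -2.07 ± 0.41 (adjusted p 0.00279) with miR-29a. With miR-101a the difference was -0.98 ± 0.38 (adjusted p 0.0956), and -1.0 (adjusted p 0.00764) without miR-29a replicate 3. The kinase identifiers GRK1 and grk1b and both GUCA1A identifiers, which encode a guanylate cyclase activating protein, were not tested. No member that went untested exceeded 15 counts or 0.545 CPM in any library.

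In the visual cycle 4 of 5 genes fell with miR-29a, and with miR-101a 3 fell and 1 rose. Of all tested genes 11.9% fell with miR-29a, and 6.97% fell and 11.7% rose with miR-101a. In the fit without miR-29a replicate 3, 5 visual cycle genes fell with miR-29a, and 4 fell and 1 rose with miR-101a. There the shares over all genes were 26.8% with miR-29a, and 24.2% and 23.7% with miR-101a. RPE65 (ENSDARG00000094752) was at 28.3, 27.9, 25.3 and 31.2 CPM in the control libraries, 23.4, 23.9, 20.9 and 23.5 with miR-101a and 17.9, 18.8, 17.6 and 18.1 with miR-29a. RPE65 encodes the isomerase that remakes the chromophore, and 3 identifiers carry the symbol. The 3 groups were separate in descending order. The log2 change was -0.64 ± 0.09 (adjusted p 0.000184) with miR-29a and -0.30 ± 0.08 (adjusted p 0.0289) with miR-101a.

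RPE65 (ENSDARG00000054420) was at 9.12, 9.62, 8.92 and 10.1 CPM in the control libraries, 7.1, 7.73, 6.8 and 7.67 with miR-101a and 5.52, 6.42, 5.33 and 5.96 with miR-29a. The order of the groups was the same and no ranges overlapped. On the log2 scale it changed by -0.70 ± 0.11 (adjusted p 0.000458) with miR-29a and -0.37 ± 0.11 (adjusted p 0.03) with miR-101a.

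RPE65 (ENSDARG00000007480) was at 6.53, 5.38, 8.71 and 6 CPM in the control libraries, 1.45, 2.38, 3.03 and 2.16 with miR-101a and 0.717, 1.48, 5.33 and 1.2 with miR-29a. In this copy the treated groups overlapped, and miR-29a replicate 3 came close to control. Its fitted log2 change was -1.64 ± 0.49 (adjusted p 0.0263) with miR-29a, and -2.54 (adjusted p 9.77e-07) without replicate 3. That call was lost without control replicate 1 or 3 or miR-29a replicate 1, 2 or 4 (adjusted p up to 0.0722). With miR-101a it was -1.56 ± 0.49 (adjusted p 0.0438). The miR-101a calls of the 3 RPE65 identifiers, in the order given, were lost in 7, 8 and 9 of the 12 fits that left out 1 library (adjusted p up to 0.129). These fits left out any single control or miR-101a library, apart from control replicate 3 for the first, and for the last also miR-29a replicate 2.

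rlbp1b was at 6.19, 5.21, 7.51 and 5.12 CPM in the control libraries, 2.95, 3.52, 3.88 and 3.46 with miR-101a and 1.01, 1.91, 4.45 and 1.37 with miR-29a. It encodes a retinal-binding protein of the visual cycle. All treated libraries were below all controls. The log2 change with miR-29a was -1.48 ± 0.36 (adjusted p 0.00924), and -2.07 (adjusted p 9.51e-08) without replicate 3. With miR-101a the difference was -0.80 ± 0.35 (adjusted p 0.145), and -0.82 (adjusted p 0.000328) without that library.

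rbp3 was at 1.51, 2.07, 1.79 and 2.04 CPM in the control libraries, 4.9, 6.44, 5.7 and 4.52 with miR-101a and 0.674, 1.79, 1.5 and 0.669 with miR-29a. The encoded protein carries retinoids between photoreceptors and the pigment epithelium. Every miR-101a library was above every control, and the miR-29a range reached into the control range. In log2 units the change was 1.54 ± 0.28 (adjusted p 0.00279) with miR-101a, and the difference with miR-29a was -0.69 ± 0.30 (adjusted p 0.111), or -0.84 (adjusted p 0.021) without replicate 3. The direct difference was -2.23 ± 0.30 (adjusted p 0.000489).

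**Figure D3:**
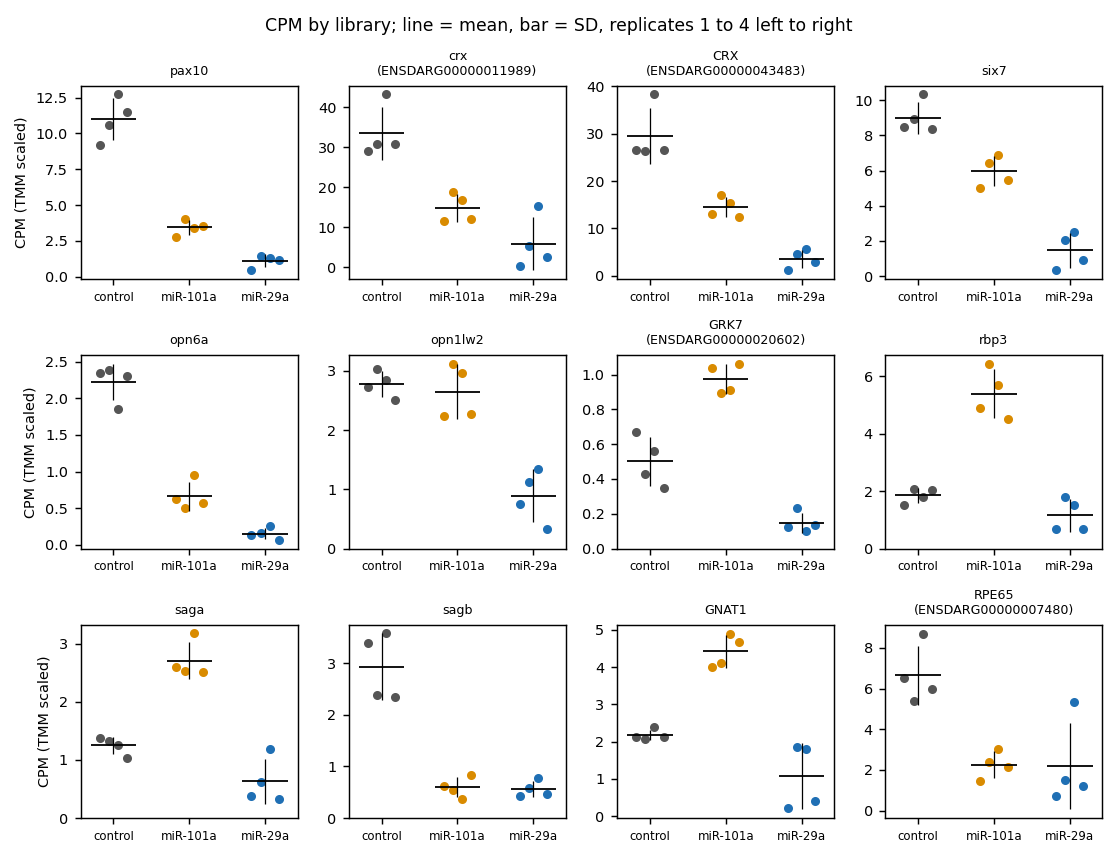
CPM (y axis, linear, scaled separately in each panel) of 12 genes in each library by group (x axis), with lines for the mean and bars for the SD of 4 libraries. In pax10, six7 and opn6a the groups descend from control to miR-29a, and in rbp3, saga, GRK7 (ENSDARG00000020602) and GNAT1 the miR-101a libraries lie above all controls.

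The balance within pairs of copies was set out for 3 pairs, chosen after their values were seen and so given with no test. Of the counts of saga and sagb together, saga took 26.1% to 35.6% in control, 75.0% to 89.7% with miR-101a and 41.7% to 60.5% with miR-29a. RPE65 (ENSDARG00000007480) took 16.1% to 25.6% of its pair with RPE65 (ENSDARG00000094752) in control and 5.82% to 12.7% with miR-101a. With miR-29a it took 3.85% to 7.29% in replicates 1, 2 and 4 and 23.2% in replicate 3. SIX6 (ENSDARG00000025187) took 6.58% to 8.38% of its pair in control, 11.7% to 14.2% with miR-101a and 13.3% to 14.9% with miR-29a. The shares of saga and of this SIX6 copy lay above their control range in every treated library. How reads shared by similar copies were counted is not given in the sources used here.

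**Figure D4:**
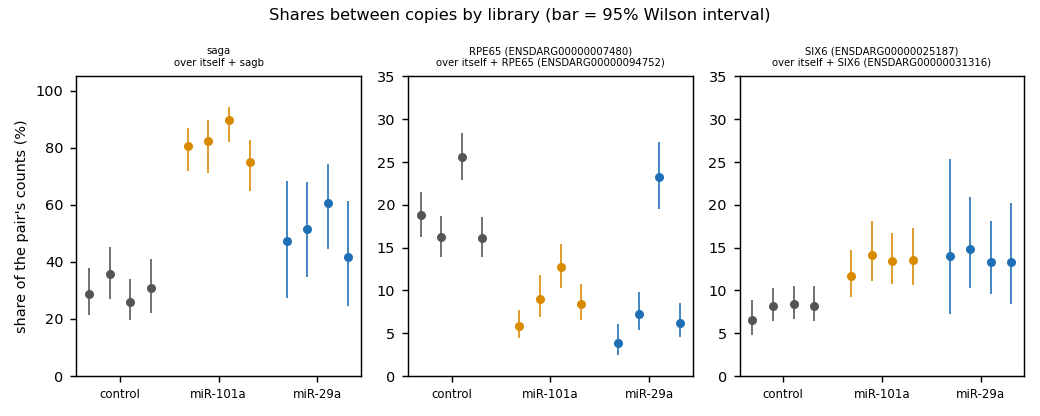
Share of a pair's counts that fell on the named copy in each library (y axis, %; bars are 95% Wilson intervals for counting error), by group (x axis), for 3 pairs chosen after their values were seen. The saga share is 26.1% to 35.6% in control and 75.0% to 89.7% with miR-101a.

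Within the miR-29a group the 4 libraries differed in how low the genes were. Replicate 1 was the lowest of the 4 in 24 of the 38 tested genes and in 16 of the 18 transcription factors, where it was the lowest in 19.0% of all tested genes. Replicate 3 was the highest in 24 of 38, where it was the highest in 48.7% of all genes. For crx (ENSDARG00000011989) the level was 0.337 CPM in replicate 1 and 15.4 CPM in replicate 3. The labels give the same dose and age for the 4 libraries.

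Other genes of the eye were counted from lists that exclude the genes above. Among 38 other eye and retina transcription factors 23 were lower with miR-29a and 6 with miR-101a, with median log2 changes of -0.80 and -0.21, where 11.9% and 6.97% of all genes were called lower. Leaving out miR-29a replicate 3 gave 29 lower and 3 higher with miR-29a, and 19 lower and 2 higher with miR-101a. With miR-29a THRB, a thyroid hormone receptor that acts in long-wavelength cones, was at -1.03 ± 0.10 (adjusted p 2.57e-05). With miR-101a the calls with the smallest p were lhx2a at -0.77 ± 0.15 (adjusted p 0.00436) and hmx4 at -0.80 ± 0.17 (adjusted p 0.00604). Both were also called lower with miR-29a, at -1.11 ± 0.16 (adjusted p 0.000296) and -0.76 ± 0.17 (adjusted p 0.00499). In the fit of all libraries edgeR called 0 of the 38 higher than control, and 3 with miR-29a and 0 with miR-101a had an unadjusted p under 0.05 in that direction. The share of all genes at that threshold was not counted.

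Among 49 tested other genes of phototransduction and the visual cycle, 10 fell and 2 rose with miR-29a, and 8 fell and 3 rose with miR-101a. The medians were -0.21 and -0.06. Over all genes, 11.9% fell and 17.1% rose with miR-29a, and 6.97% and 11.7% with miR-101a. Without miR-29a replicate 3, of 50 tested, 22 fell and 4 rose with miR-29a, and 15 fell and 7 rose with miR-101a, where 26.8% of all genes fell and 25.8% rose with miR-29a, and 24.2% and 23.7% with miR-101a. The same shares apply to the counts of the other lists without that library. PDE6B (ENSDARG00000011671), with the symbol of a rod phosphodiesterase subunit, rose by 1.06 ± 0.16 (adjusted p 0.000936) with miR-101a and 1.15 ± 0.16 (adjusted p 0.000297) with miR-29a. The values of PDE6B (ENSDARG00000000380) were 0.14 ± 0.20 (adjusted p 0.712) and -0.40 ± 0.21 (adjusted p 0.179). PDC (ENSDARG00000017634), with the symbol of phosducin, rose by 1.23 ± 0.23 (adjusted p 0.003) with miR-101a and changed by -1.07 ± 0.28 (adjusted p 0.013) with miR-29a. For PDC (ENSDARG00000011886) the values were -0.06 ± 0.43 (adjusted p 0.948) and -0.11 ± 0.44 (adjusted p 0.881). UNC119 (ENSDARG00000034453) rose by 1.21 ± 0.15 (adjusted p 0.000123) with miR-29a. ABCA4 (ENSDARG00000062661), with the symbol of a retinoid transporter, changed by -1.90 ± 0.28 (adjusted p 0.000396) with miR-29a and -1.15 ± 0.26 (adjusted p 0.00958) with miR-101a. The more abundant ABCA4 (ENSDARG00000057169) differed by 0.13 ± 0.16 (adjusted p 0.589) and 0.31 ± 0.16 (adjusted p 0.225). Their control means were 1.32 and 5.28 CPM. PROM1 (ENSDARG00000034007), a membrane protein of photoreceptor discs, changed by -0.82 ± 0.15 (adjusted p 0.00142) with miR-29a and -0.58 ± 0.15 (adjusted p 0.0166) with miR-101a. The more abundant PROM1 (ENSDARG00000039966) changed by -0.50 ± 0.12 (adjusted p 0.00657) and -0.59 ± 0.12 (adjusted p 0.00406). With miR-101a syt5b changed by -1.62 ± 0.28 (adjusted p 0.00192) and the retinol dehydrogenase rdh5 by -1.06 ± 0.19 (adjusted p 0.00261). rdh5 was also called lower with miR-29a, at -0.55 ± 0.19 (adjusted p 0.0481). The mean of syt5b was 9.21 CPM in control, 3.0 CPM with miR-101a and 3.52 CPM with miR-29a.

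Markers of neighbouring tissues moved as well. Of 27 tested lens genes 24 were lower with miR-29a and 12 with miR-101a, with medians of -2.05 and -1.19, where 11.9% and 6.97% of all genes were called lower. Without miR-29a replicate 3 these were 25 and 18, with medians of -2.45 and -1.21. Their summed level was 2049 to 3066 CPM in control, 892.6 to 1141 CPM with miR-101a and 139.2 to 1125 CPM with miR-29a, where 1125 CPM is replicate 3. The crystallin gene crybb1l3 fell by 2.58 ± 0.38 (adjusted p 0.000692) with miR-101a. Of 12 genes of pigment cells and the retinal pigment epithelium, 5 fell with miR-101a, led by pmela at -1.23 ± 0.11 (adjusted p 2.83e-05) and DCT at -0.50 ± 0.10 (adjusted p 0.00569). Over all genes 6.97% fell, and without miR-29a replicate 3, 11 of the 12 fell. With miR-29a 3 of the 12 fell (4 without replicate 3) and 1 rose, where 11.9% and 17.1% of all genes did. Among those that fell were TRPM1 at -1.31 ± 0.20 (adjusted p 0.000538) and pmelb at -1.80 ± 0.33 (adjusted p 0.00174). Both also fell with miR-101a, by 0.64 ± 0.20 (adjusted p 0.0405) and 1.32 ± 0.33 (adjusted p 0.0147). The gene that rose with miR-29a was pmela, by 0.33 ± 0.11 (adjusted p 0.0439). The summed level of the 12 genes was 1010 to 1060 CPM in control, 615.8 to 759.7 CPM with miR-101a and 905.4 to 1338 CPM with miR-29a, replicate 3 being the highest.

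Of 9 tested pineal genes, 2 rose and 2 fell with miR-29a, where 17.1% and 11.9% of all genes did. With miR-101a 1 rose, where 11.7% of all genes did. With miR-29a replicate 3 left out, 2 rose and 4 fell with miR-29a, and 3 rose with miR-101a. With miR-29a asmt2, an enzyme of melatonin synthesis, was at 0.70 ± 0.11 (adjusted p 0.000721). TPH1 (ENSDARG00000036082), a tryptophan hydroxylase, was at 1.29 ± 0.23 (adjusted p 0.00155). Its level was 12.15 ± 5.247 CPM (SD) with miR-29a against 4.957 ± 0.4648 CPM in control. The other identifier, TPH1 (ENSDARG00000029432), was not called with miR-29a, at 0.8236 ± 0.2311 against 1.186 ± 0.254 CPM. The homeobox genes bsx and LHX4 were at -1.02 ± 0.21 (adjusted p 0.00339) and -0.77 ± 0.20 (adjusted p 0.0119) with miR-29a. With miR-101a ASMT (ENSDARG00000098249) was at 0.85 ± 0.20 (adjusted p 0.0107). The summed pineal level was 47.8 to 54.7 CPM in control, 49.7 to 56.1 CPM with miR-101a and 41.9 to 73.0 CPM with miR-29a, replicate 3 being the highest. The part of lens, pigment and pineal cells in the results for the eye field and photoreceptor genes was not tested.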

How the data were processed

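Per the labels' protocols, libraries from whole zebrafish were prepared with Illumina's TruSeq RNA v2 kit. The method keeps no strand information, so overlapping genes on opposite strands could not be told apart. The authors deposited unnormalized read counts per gene, and for the build GRCz10 the submitters' processing notes list featureCounts 1.4.6-p4, STAR 2.4.1d and bcl2fastq 1.8.4, without settings. The deposited RPKM values were not used as levels. Among 7554 genes counted at least 300 times in each library, they equalled counts over length and a library total, with totals recycled down the genes, so that 8.33% of values were divided by their own total. Gene lengths recovered from them (coefficient of variation over libraries at most 0.0265%) gave the RPKM printed here.

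Libraries were grouped by the labelled perturbation. Genes passing filterByExpr (minimum count 10) were scaled by TMM and tested with edgeR 4.0.16 (robust quasi-likelihood fit of all 12 libraries, R 4.3.3), with Benjamini-Hochberg adjustment over 20872 genes. SE is the absolute log2 change over the square root of F. The fit was tested on simulated data. DESeq2 1.42.0, RLE scaling, other filters, a replicate block, fits of 8 libraries and fits leaving out each library were alternatives.

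The genes and lists were chosen with earlier results of these data known. Library values are printed for up to 5 called genes per role, those with the smallest p, and for further genes whose value turned on 1 library, which were chosen after their values were seen. From each other list the 2 genes with the smallest p per direction are named. Some genes included in the counts are not reported here by name. Symbols came from a table pairing them with identifiers, which covered 26269 of 32105 genes. Of 41 listed genes 26 matched by symbol, 10 by a symbol copies share, 1 by identifier, 1 by symbol without its copy number (OPN1SW) and 1 by a RefSeq synonym (rbp3). The biological coefficient of variation, the spread between libraries beyond counting error, was 21.7%, and intervals on counts cover counting error only.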

Additional observations from a re-analysis of the deposited data

Results flagged for a closer look

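One library lay far from the other 3 of its group in 9 of the 108 groups of 4 libraries examined, where the gap to the nearest library divided by the group's range exceeded Dixon's 95% critical value. Chance marks about 1 group in 20. In all 9 the library apart was replicate 3 of its group. Over all tested genes, deviations of the replicate 3 libraries from their group means correlated between groups at 0.137 to 0.339. The cause was not tested. In control, replicate 3 was high for 4 transcription factors of the retina. These were VSX1 at 90.3 CPM against 68.5 to 72.1 CPM in the other 3, crx (ENSDARG00000011989) at 43.2 CPM against 29 to 30.9 CPM in the other 3, CRX (ENSDARG00000043483) at 38.3 CPM against 26.4 to 26.6 CPM in the other 3, and NR2E3 at 23.9 CPM against 17.4 to 17.6 CPM in the other 3. The same library was low for opn6a at 1.86 CPM against 2.31 to 2.39 CPM in the other 3.

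In the miR-29a group, replicate 3 was the library apart in 2 genes. It was high for RPE65 (ENSDARG00000007480) at 5.33 CPM against 0.717 to 1.48 CPM in the other 3. It was low for PRDM1 at 25.4 CPM against 31.1 to 31.5 CPM in the other 3. In the miR-101a group, replicate 3 was high for saga at 3.18 CPM against 2.51 to 2.61 CPM in the other 3, and low for RPE65 (ENSDARG00000094752) at 20.9 CPM against 23.4 to 23.9 CPM in the other 3.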

How the results depend on the processing

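No gene called in both of 2 settings changed direction, and 21 of 2036 single-gene values under alternatives changed sign while called in neither. Shares over all genes were counted only for the fit of all libraries and that without miR-29a replicate 3. Whether calls over all genes moved likewise in the other settings below is therefore not known. In fits of only the 8 libraries compared, the number called with miR-101a went from 9 to 20 lower and from 5 to 9 higher. That with miR-29a went from 2 to 1 higher, and the number lower in the direct comparison from 22 to 14. These fits lost 15 calls and gained 15, and the miR-29a calls lost were those of rx3, SIX6 (ENSDARG00000025187), crx (ENSDARG00000011989), nrl, saga, GRK7 (ENSDARG00000055534) and RPE65 (ENSDARG00000007480). The direct calls lost there were those of SIX3 (ENSDARG00000054879), both SIX6 identifiers, NR2E3, GNAT1, GNAT2 and RPE65 (ENSDARG00000054420 and ENSDARG00000094752). DESeq2 called 1 gene higher in the direct comparison in place of 0.

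Leaving out 1 library gave 3 to 8 genes higher and 3 to 19 lower with miR-101a, 1 to 2 higher and 23 to 34 lower with miR-29a, and 0 to 1 higher and 17 to 30 lower between the treated groups. The fit without miR-29a replicate 3 gave the highest number lower in each comparison, gaining 27 calls and losing 0. The single gene that remained called higher with miR-29a when control replicate 1, 2 or 3 or miR-29a replicate 1 was left out is PRDM1.

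Same-numbered libraries deviated together, at a correlation over 0.1, in 7 of 12 pairs (correlations from -0.195 to 0.391). Pairs with different numbers ranged from -0.461 to 0.377. On average 6 of 12 libraries correlated best with their own number. These values do not settle whether the numbers mark a pairing. The fit of all libraries took none, and a fit with the replicate number as a block is given beside it. With the replicate block, 1 gene was called higher with miR-29a in place of 2, and 27 lower in place of 29. The block lost 5 calls, those of nrl, ARR3 (ENSDARG00000098475) and GRK7 (ENSDARG00000055534) with miR-29a and of GNAT2 and RPE65 (ENSDARG00000054420) in the direct comparison, and gained 2. The causes of these differences were not tested. Low depth limits the 9 genes not tested, of which none exceeded 15 counts in a library.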
